A study of Homo sapiens with 6 samples.

Results

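Beta-catenin, encoded by CTNNB1, and the proteins that mark it for destruction were followed in a human colorectal cancer line depleted of the transcription factor TCF7L1. The group holds 10 genes, taken by gene symbol and by no cut-off on their measured values. The group and the related lists below were chosen with earlier results of these data known. The members are CTNNB1 itself, the scaffolds APC and AXIN1, the kinases GSK3A, GSK3B, CSNK1A1, CSNK1D and CSNK1E, and the ubiquitin ligase subunits BTRC and FBXW11. They were represented by 26 of the 47225 probes on the array, against 20043 genes named on it in all, and a member had between 1 and 7 probes. Of these, 15 probes of 8 genes passed the detection filter, which asked for a detection p below 0.01 on at least 3 of the 6 arrays. APC and GSK3A had no probe that passed.

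Without a Wnt signal, APC and AXIN1 hold beta-catenin beside casein kinase 1, which phosphorylates it first, and GSK3, which extends the phosphorylation. The marked protein is bound by the F-box protein beta-TrCP, made by either BTRC or FBXW11, and is ubiquitinated and degraded. Wnt signalling stops this, and beta-catenin then enters the nucleus and binds TCF/LEF factors at target genes; a separate pool joins cadherins at cell junctions. In intestinal epithelium this pathway maintains the stem cells of the crypt, and most colorectal cancers carry a lesion in it, commonly in APC. HCT116 is a colorectal carcinoma line with intact APC in which 1 CTNNB1 allele lacks a serine that casein kinase 1 phosphorylates, beside a wild-type allele. The complex is controlled mainly at the level of protein, which the array does not measure, and it gives no separate signal for the 2 CTNNB1 alleles.

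Total RNA of HCT116 cells was hybridised to Illumina BeadChips, with 1 colour and 1 sample an array. The 3 control arrays carried RNA of cells with the shRNA named shCtrl, and the other 3 that of cells with an shRNA against TCF7L1, named shTCF7L1; both groups are the same line and both express a hairpin. The series describes the 3 samples of a condition as biological replicates. No source used here gives the number of different hairpins, the way they were delivered or the time after delivery, so effects of the hairpin other than on TCF7L1 cannot be told apart from the knockdown.

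TCF7L1, which binds the same DNA sites as the other TCF factors and mostly represses, was dim. Its only probe, ILMN_1733841, gave signals of 45.1, 35.8 and 40.6 on the shCtrl arrays and 29.3, 32.4 and 25.4 on the shTCF7L1 arrays. Of the controls, 2 of 3 were above background for it, and of the knockdown arrays 0 of 3; the lowest control value was higher than the highest knockdown value. The difference was at least 1.02-fold against the dimmest probe above background, and its adjusted p was 0.0807 in limma's fit over all probes. Per array, 34.0% to 36.8% of probes were above background and the mean signal was 162 to 177. The correlation of log2 levels was 0.971 to 0.975 for arrays of the same group and 0.942 to 0.948 across groups. All arrays were on 1 chip, each group at its own neighbouring positions, so position and group cannot be told apart.

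Of 12 epithelial markers, 6 were above background on every array (EPCAM, CDH1, KRT8, KRT18, KRT19 and CDX2), KRT20 on 1, and CDH17, CDX1, VIL1, GPA33 and LGALS4 on none. Their summed signal was 8086 to 10055 in shCtrl and 7301 to 9864 in shTCF7L1. KRT8 fell by 0.82 on the log2 scale (SE 0.24, limma adjusted p = 0.0305) and passed in 11 of 17 alternatives. The other 5 markers tested did not pass, with differences of -0.53 (CDH1), -0.37 (KRT18), -0.02 (KRT19), 0.08 (CDX2) and 0.42 (EPCAM). Of the leukocyte markers CD68 was above background on all 6 arrays, CD14 on 3, LYZ on 2 and PTPRC, CD3E, TYROBP and LAPTM5 on none, and the 5 endothelial markers on none except VWF, on 1. The leukocyte list summed to 249 to 328 in shCtrl and 272 to 329 in shTCF7L1. Of the 8 fibroblast markers, COL3A1 and DCN were above background on at most 1 array with any probe. COL1A2, LUM, PDGFRA, PDGFRB and THY1 were above background on none. Only COL1A1 was above background on every array, and it rose by 1.14 (SE 0.28, limma adjusted p = 0.0116). With it, the summed signal of the list was 241 to 274 in shCtrl and 275 to 398 in shTCF7L1. Whether this has a part in the results below was not tested.

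Of the 8 members tested, 2 changed: BTRC rose and GSK3B fell. Over all 10470 genes tested, 15% changed at an adjusted p below 0.05 in limma's moderated test, 7.85% upward and 7.11% downward, and with so few members a count of 2 is not read as a departure from that background. In normalized level the groups did not overlap for 5 of the 8 members, beside 33.9% of all genes, and 3 of the 8 had an unadjusted p below 0.05, beside 29.8% of all genes. The median log2 difference of the members was 0.19, from -0.65 to 0.83, and that of all genes was 0.02. At the level of probes, 2 of the 15 that passed the filter changed, beside 13% of all such probes, and for 6 of the 15 the groups did not overlap, beside 32.4%. In RNA of whole cultures, fewer cells of a type and less RNA per cell cannot be told apart.

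**Figure D1:**
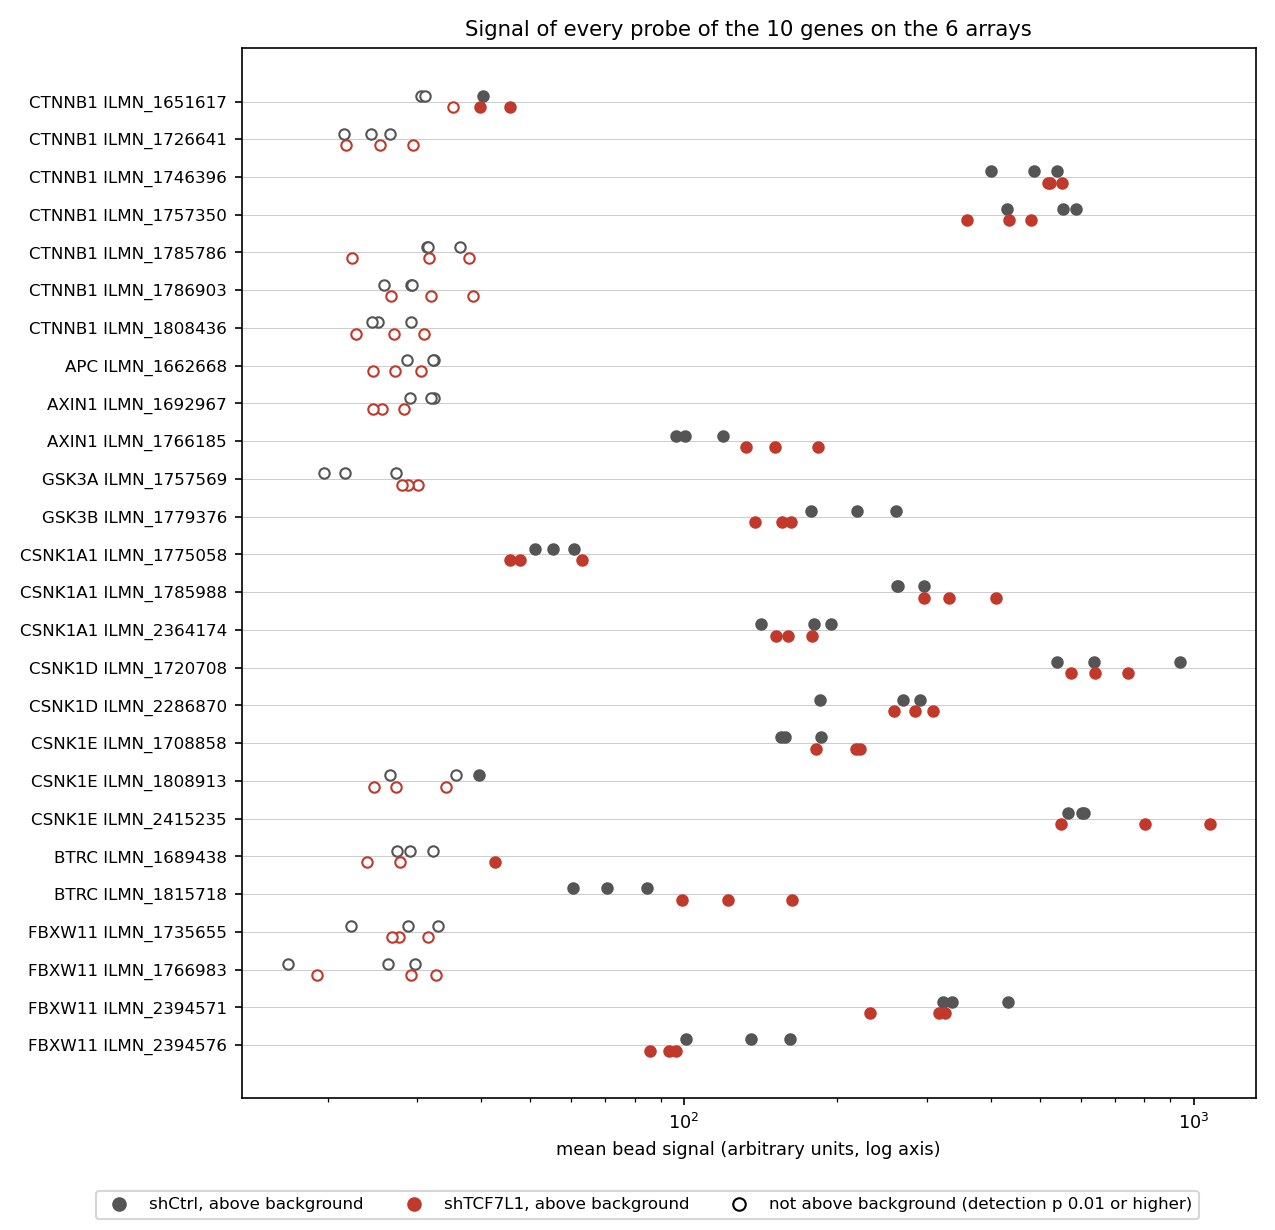
Mean bead signal in arbitrary units, on a log axis, of all 26 probes on each of the 6 arrays; grey points are shCtrl, red points shTCF7L1, and open points were not above background. The open points crowd at the left; of the probes above background on all arrays, those of BTRC, GSK3B and AXIN1 and ILMN_2394576 of FBXW11 separate the 2 groups in the signal as deposited.

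CTNNB1 did not pass the test with any probe, and the 2 probes above background on every array pointed in different directions. ILMN_1746396, which stood for the gene, gave signals of 539, 399.6 and 486 in shCtrl and 519, 551 and 523 in shTCF7L1, which overlap. After normalization its log2 level was 8.87 ± 0.12 (SD, n = 3) and 9.00 ± 0.03, with the 2 groups just apart: the log2 difference was 0.13 (SE 0.19, 95% interval -0.28 to 0.53, limma adjusted p = 0.706). This interval leaves room for a rise of up to 0.53 as well as for a fall. ILMN_1757350 gave 589, 430.0 and 554 in shCtrl and 435, 359.7 and 479 in shTCF7L1, and its groups overlapped. Its log2 difference was -0.37 (SE 0.21, 95% interval -0.80 to 0.07, adjusted p = 0.263).

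The level of the first of these CTNNB1 probes minus that of the second was -0.14, -0.10 and -0.18 on the control arrays and 0.27, 0.65 and 0.14 on the knockdown arrays. The 2 groups did not overlap, and the shift was 0.49, with an exact 2-sided permutation p of 0.1, the smallest that 3 against 3 arrays allow, and 0.45 after adjustment over the 9 probe pairs of the members. This comparison between probes was chosen after their values were seen. The mean over the gene's probes that passed the filter gave a log2 difference of -0.0011 (adjusted p = 0.997). A dim probe, ILMN_1651617, was above background on 1 control and 2 knockdown arrays, with signals of 30.5 to 45.5 and a log2 difference of 0.24 (adjusted p = 0.51). The other 4 CTNNB1 probes were not above background on any array, and the files do not hold the probe sequences that would show which transcripts each one reads.

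Of the scaffolds, only AXIN1, the member usually held to limit the amount of the complex, could be measured. ILMN_1766185 gave signals of 119, 96.4 and 100.4 in shCtrl and 151, 183 and 132 in shTCF7L1, with no overlap between the groups. The log2 level was 6.59 ± 0.12 against 7.10 ± 0.23, a difference of 0.51 (SE 0.20, 95% interval 0.09 to 0.94; 1.43-fold), which did not pass after adjustment over all genes (limma adjusted p = 0.0958) or under any of the 17 processing alternatives. A further AXIN1 probe, ILMN_1692967, was not above background on any array. APC, the large scaffold that is the usual site of mutation in colorectal cancer, was not above background on any array with its only probe, ILMN_1662668, which read 28.6, 32.4 and 32.1 in shCtrl and 30.5, 24.6 and 27.1 in shTCF7L1. That probe shows neither a level nor a difference.

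GSK3B, the kinase that completes the phosphorylation read by beta-TrCP, was the only member that fell. Its single probe, ILMN_1779376, gave signals of 219, 178 and 261 in shCtrl and 162, 156 and 138 in shTCF7L1, and the highest knockdown value was below the lowest control value. The log2 level was 7.73 ± 0.26 (SD, n = 3) in shCtrl and 7.08 ± 0.12 in shTCF7L1. The difference of -0.65 (SE 0.20, 95% interval -1.08 to -0.21; 1.57-fold lower) had a limma adjusted p of 0.0426. This call rested on every array: without any single one the adjusted p was 0.0517 to 0.161 and the difference -0.75 to -0.50. It was also lost with median scaling (adjusted p = 0.0735), a replicate block (0.0605), the authors' processed values (0.125) and without the detection filter (0.0608). GSK3A, the paralog with an overlapping role, was not above background on any array with its only probe, ILMN_1757569, which read 19.6, 21.7 and 27.2 in shCtrl and 30.1, 28.7 and 27.9 in shTCF7L1.

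**Figure D2:**
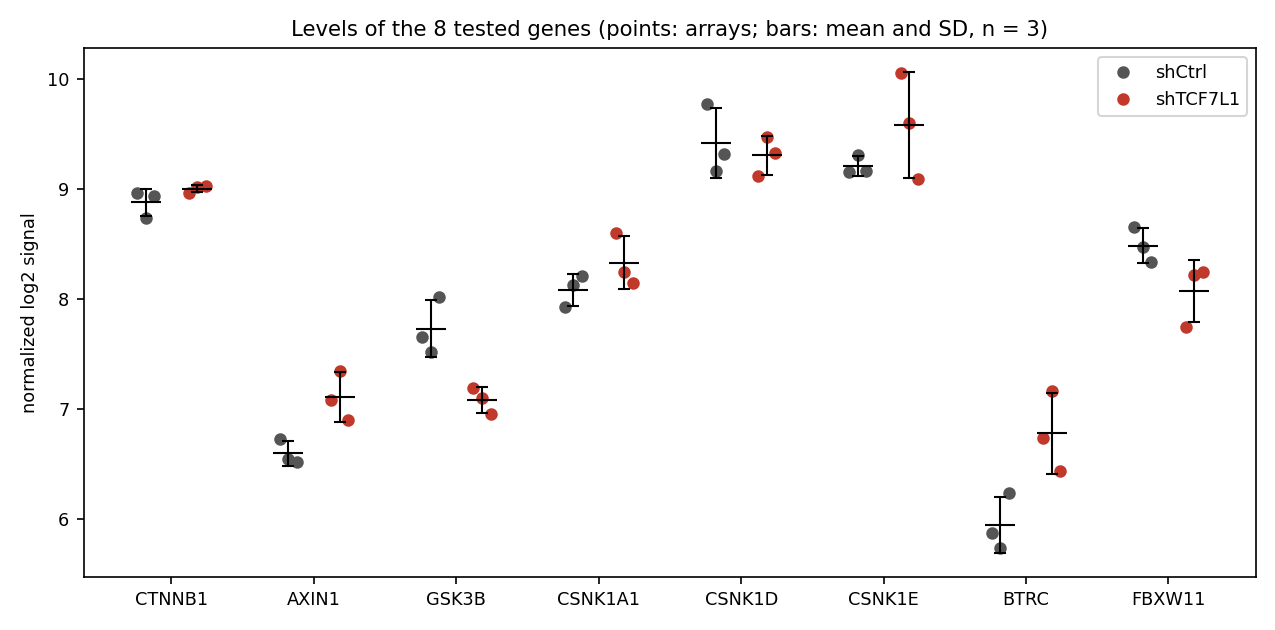
Normalized log2 signal of the 8 tested genes, each by the probe that stands for it; points are arrays and bars the mean and SD of 3. BTRC (5.94 against 6.77) and GSK3B (7.73 against 7.08) are the changed genes. AXIN1, FBXW11 and, only just, CTNNB1 separate without passing, and the groups overlap for CSNK1A1, CSNK1D and CSNK1E. Heights of different genes are not comparable, because each probe has its own brightness.

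None of the casein kinase 1 genes passed the test. CSNK1A1, the isoform that makes the priming phosphorylation of beta-catenin, gave signals of 263, 262 and 296 in shCtrl and 409, 332 and 295 in shTCF7L1 with ILMN_1785988. These groups overlapped through shTCF7L1 replicate 3, and the log2 difference was 0.25 (SE 0.20, limma adjusted p = 0.448). Its other probes pointed the opposite way: ILMN_2364174 by -0.17 (adjusted p = 0.632) and ILMN_1775058 by -0.25 (adjusted p = 0.476), so the sign depended on the probe chosen; the mean over the 3 probes was -0.056. The near-copies CSNK1A1L and CSNK1A1P1 were not above background on any array, but the sources used here do not show whether the CSNK1A1 probes also bind their transcripts.

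CSNK1D and CSNK1E, closely related kinases that act on Dishevelled and other Wnt components, varied between replicates of 1 group. CSNK1E gave 610.3, 605 and 568 in shCtrl and 1075, 804 and 548 in shTCF7L1 with ILMN_2415235. Replicates 1 and 2 of shTCF7L1 were above all controls and replicate 3 below them all; the log2 level was 9.20 ± 0.09 against 9.58 ± 0.48 and the difference 0.37 (SE 0.23, limma adjusted p = 0.303). A second CSNK1E probe, ILMN_1708858, differed by 0.24 (adjusted p = 0.454). CSNK1D gave 939.7, 540.0 and 637 in shCtrl and 574, 742 and 641 in shTCF7L1 with ILMN_1720708, where the highest value was that of shCtrl replicate 1. Its difference was -0.11 (SE 0.21, adjusted p = 0.767), or 0.066 without that array, and 0.14 with its other probe, ILMN_2286870 (adjusted p = 0.711). A readthrough transcript of TPTEP2 and CSNK1E is annotated by RefSeq; the TPTEP2 probe was not above background on any array.

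The 2 beta-TrCP genes went in opposite directions by their values, although only BTRC passed the test. BTRC encodes the F-box protein that binds phosphorylated beta-catenin and recruits it to the SCF ubiquitin ligase. ILMN_1815718 gave signals of 70.8, 60.5 and 84.6 in shCtrl and 122, 163 and 99.1 in shTCF7L1, with no overlap. The log2 level was 5.94 ± 0.25 (SD, n = 3) against 6.77 ± 0.36, a rise of 0.83 (SE 0.23, 95% interval 0.35 to 1.31; 1.78-fold) with a limma adjusted p of 0.0218. The call was lost without shCtrl replicate 1 (adjusted p = 0.0683), shCtrl replicate 2 (0.0849), shTCF7L1 replicate 1 (0.0547) or shTCF7L1 replicate 2 (0.0992), and without the detection filter (0.0821). The difference stayed between 0.59 and 1.17 over all 17 alternatives. A second, dim BTRC probe, ILMN_1689438, was above background on 1 array, shTCF7L1 replicate 3.

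FBXW11, which encodes the second beta-TrCP protein, had 2 probes above background, and on both the normalized level was lower on every knockdown array than on any control array. ILMN_2394571, which stood for the gene, gave 432, 335 and 322 in shCtrl and 232, 326 and 316 in shTCF7L1. These signals overlap, since shTCF7L1 replicate 2 exceeded shCtrl replicate 3, and the normalized levels were 8.65, 8.46 and 8.33 against 7.74, 8.21 and 8.25. The log2 difference was -0.42 (SE 0.21, 95% interval -0.86 to 0.03, limma adjusted p = 0.196). ILMN_2394576 gave 162, 136 and 101 in shCtrl and 93.7, 85.9 and 96.6 in shTCF7L1, a difference of -0.66 (SE 0.22, 95% interval -1.12 to -0.20; 1.58-fold lower) with an adjusted p of 0.0567. That probe passed under 2 of 16 alternatives, a looser detection filter and leaving out shCtrl replicate 3. The mean of both probes gave -0.54 (adjusted p = 0.0675). The other 2 FBXW11 probes, ILMN_1735655 and ILMN_1766983, were not above background on any array.

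**Figure D3:**
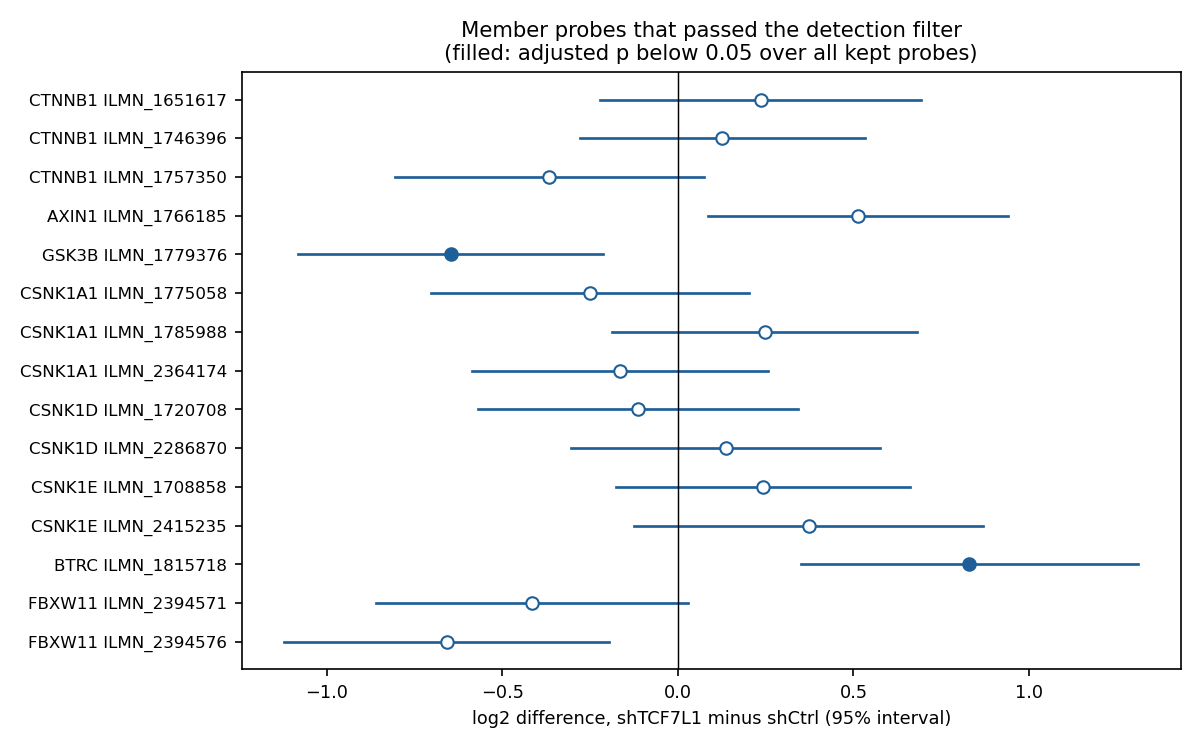
Log2 difference, shTCF7L1 minus shCtrl, with its 95% interval for the 15 probes that passed the detection filter; filled points had an adjusted p below 0.05 over all such probes. The BTRC probe lies at 0.83 and the GSK3B probe at -0.65; both FBXW11 probes lie below 0, while the probes of CTNNB1, CSNK1A1 and CSNK1D fall on both sides of it.

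The balance between paralogs was compared array by array, which removes whatever scales a whole array. The log2 level of BTRC minus that of FBXW11 was -2.78, -2.73 and -2.10 on the control arrays and -1.01, -1.05 and -1.81 on the knockdown arrays. The groups did not overlap, and the shift was 1.25 (0.96 to 1.51 over the alternatives run). Its exact permutation p (2-sided) came to 0.1, below which 3 against 3 arrays cannot go, and to 0.2 after adjustment over the 2 pairs that could be compared. In normalized level BTRC was higher and FBXW11 lower on every knockdown array than on any control array. The separation of their difference and its exact p follow from that and are no further support. CSNK1D minus CSNK1E shifted by -0.49 with overlapping groups (exact p = 0.5, adjusted 0.5). GSK3B against GSK3A could not be compared, since GSK3A was not above background. A shift in such a difference shows unequal change of 2 probes and not the ratio of the transcripts.

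**Figure D4:**
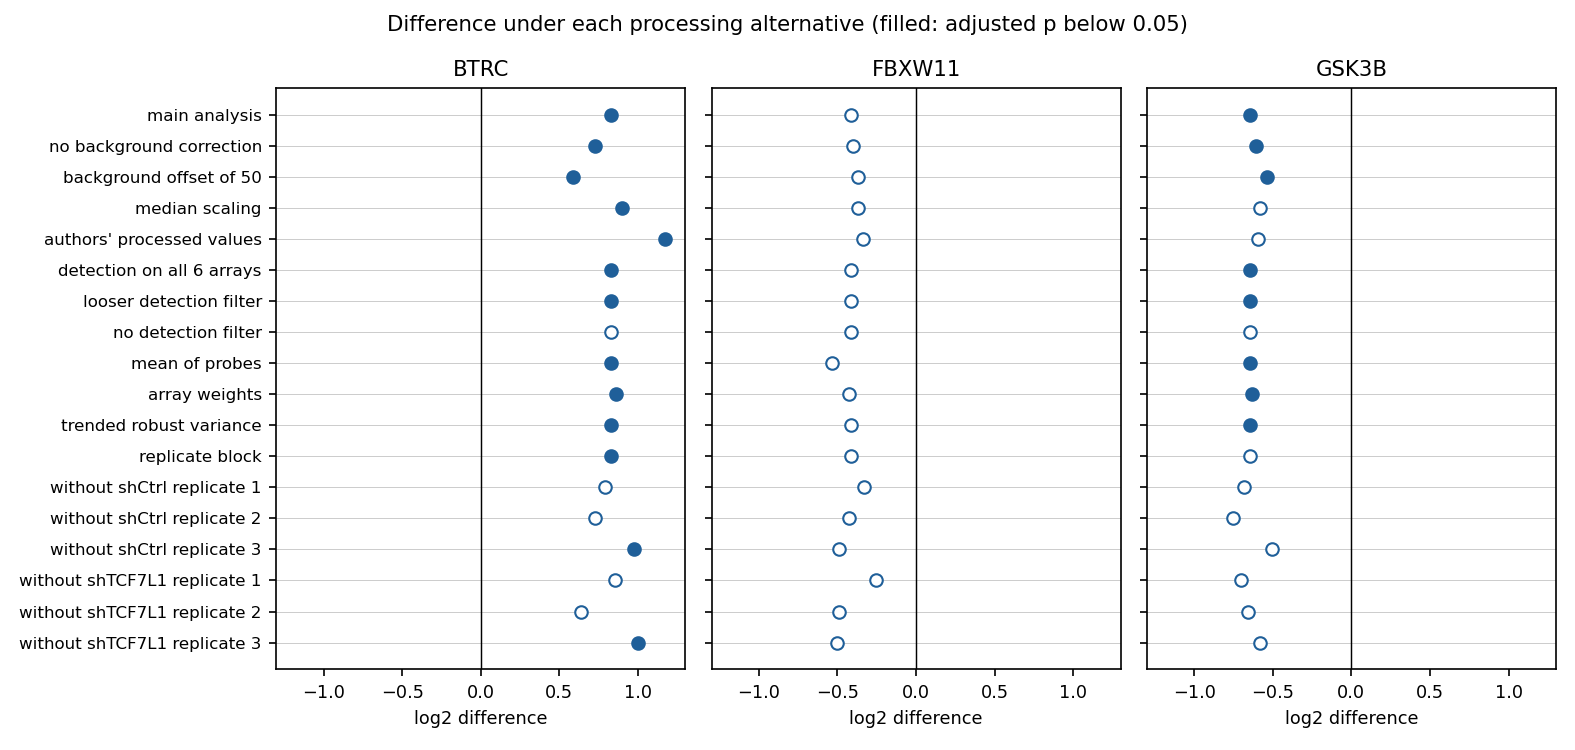
Log2 difference, shTCF7L1 minus shCtrl, of BTRC, FBXW11 and GSK3B in the main analysis and under 17 alternatives; filled points had an adjusted p below 0.05. BTRC keeps a positive sign (0.59 to 1.17) and passes in 12 of 17, GSK3B keeps a negative sign (-0.75 to -0.50) and passes in 7 of 17, and FBXW11 keeps a negative sign (-0.54 to -0.25) and passes in none.

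The genes most like CTNNB1 and the 2 changed members over the 6 arrays were listed by Pearson correlation of the log2 level, as a description; the values share their arrays and scaling, and 6 arrays in 2 groups are few. For CTNNB1 they were ZNF467 (r = 0.994), NACC2 (r = 0.990) and KREMEN1 (r = 0.987). For GSK3B they were RDM1 (r = 0.995), STAG2 (r = 0.993) and DLX1 (r = 0.985). For BTRC they were CAPS2 (r = 0.992), POP1 (r = 0.987) and PINK1 (r = 0.987). Of these 9 genes, NACC2 rose by 1.18 (limma adjusted p = 0.0282) and RDM1 fell by 1.45 (adjusted p = 0.00159), and the other 7 did not pass.

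Because TCF7L1 binds DNA, the start-site windows of the members were read from RefSeq (GRCh38.p14), 250 bases before to 50 after each start, and searched on both strands for a 7-base TCF/LEF motif, the letters CTTTG followed by 2 bases that are each A or T. Windows were found for 8 of the 10 genes, 11 windows in all; CSNK1D and BTRC had no entry. A match was found in 1 of the 11, beside 13.8% of all 35116 windows in the table. The match lay in a CSNK1E window, at position -220 from the start; CSNK1E did not pass the test. The GSK3B window, shown because GSK3B fell, held none of these letters. Both are printed 5′ to 3′ on the minus strand, with the motif in capitals, and no binding data were part of this series, so a match or its absence is a description only.
CSNK1E, chr22:38318035-38318334: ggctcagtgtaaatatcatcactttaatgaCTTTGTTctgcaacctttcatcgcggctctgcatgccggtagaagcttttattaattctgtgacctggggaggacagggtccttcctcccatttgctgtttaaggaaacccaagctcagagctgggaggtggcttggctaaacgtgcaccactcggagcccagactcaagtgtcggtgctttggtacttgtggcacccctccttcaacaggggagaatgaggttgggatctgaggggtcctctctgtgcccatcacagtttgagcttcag
GSK3B, chr3:120094398-120094697: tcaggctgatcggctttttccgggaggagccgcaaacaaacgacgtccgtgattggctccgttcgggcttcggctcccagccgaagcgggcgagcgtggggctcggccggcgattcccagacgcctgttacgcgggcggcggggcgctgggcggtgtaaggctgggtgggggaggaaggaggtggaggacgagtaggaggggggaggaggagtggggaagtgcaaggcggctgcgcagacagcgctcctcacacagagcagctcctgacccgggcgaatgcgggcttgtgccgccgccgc

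The 2 windows differ in composition: 51.7% G and C with 6 CpG dinucleotides in this CSNK1E window, and 69.3% with 33 in that of GSK3B. Across the members' 11 windows the range was 40.0% to 78.0% and 6 to 44, against medians of 58.7% and 14 over all windows.

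Regulators of the complex were next in order, from a list of 41 genes that holds phosphatase subunits, tankyrases, Dishevelled proteins, deubiquitinases and inhibitors. Of 33 tested, 5 rose and 0 fell, a share of 15.2% beside 15% of all genes that changed and 7.85% that rose. The median log2 difference was 0.15. The 5 include DACT1, and with detection asked for on all 6 arrays 4 of 29 changed. DACT1, a Dishevelled-binding antagonist, was above background on 1 control and 3 knockdown arrays, so it passed the filter through the knockdown group. Its rise (limma adjusted p = 0.00014) therefore has no firm size, 1.77 here and 1.05 to 3.05 over the alternatives; its other probe, above background on no control array, was at least 2.74-fold higher in shTCF7L1. PPP2R5B, a regulatory subunit of protein phosphatase 2A, rose by 0.96 (adjusted p = 0.00665), and SIAH2, a RING ubiquitin ligase, by 0.94 (adjusted p = 0.00648). AMER1, a membrane adaptor that binds APC and AXIN1, rose by 0.77 (adjusted p = 0.0332), and CCDC88C, a Dishevelled-binding protein, by 0.65 (adjusted p = 0.0499), but AMER1 passed in 9 and CCDC88C in 5 of 17 alternatives. The count dropped to 3 when shCtrl replicate 3, or replicate 1 or 2 of shTCF7L1, was left out. Without shCtrl replicate 1, 4 regulators were higher and 1 was lower. AXIN2, the paralog of AXIN1 and a feedback target of the pathway, differed by 0.28 with overlapping groups (adjusted p = 0.395).

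In the SCF machinery that beta-TrCP joins, 14 of 18 genes were tested; 1 rose and 1 fell, a share of 14.3% beside 15% of all genes, and the median was -0.26. Neither is part of the beta-catenin ligase: both are F-box proteins known mainly for other substrates. SKP2, which directs the degradation of the cell cycle inhibitor p27, fell by 1.46 (SE 0.24, limma adjusted p = 0.000983), and its other probes differed by -0.84 (adjusted p = 0.0094) and -0.43 (adjusted p = 0.282). FBXW7, which recognises substrates phosphorylated by GSK3, such as MYC, rose by 0.86 (SE 0.20, adjusted p = 0.00823), and by 1.10 with its other probe (adjusted p = 0.0036). Both passed under all 17 alternatives, whereas BTRC passed under 12. None of the core subunits or loading enzymes passed in the main analysis. The count for the whole list, SKP2 and FBXW7 included, was 4 with a larger background offset or the mean of probes. It was 3 under some other settings, among them median scaling and no background correction.

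The list of junction partners of beta-catenin also holds related junction proteins and a phosphatase. Of its 8 tested genes, 3 rose and 0 fell, a share of 37.5% from few genes, beside 7.85% of all genes that rose. Its median was 0.33. The list was chosen with earlier results of these data known, so its share is a description only. JUP, or plakoglobin, the closest relative of beta-catenin, rose by 0.70 (SE 0.19, limma adjusted p = 0.0234); its other probes differed by 0.51 and 0.49 without passing. PKP4, an armadillo-repeat junction protein, rose by 0.89 (adjusted p = 0.0296), and PTPN1, a phosphatase that acts on junction proteins, by 0.69 (adjusted p = 0.0302). CDH1, the cadherin that binds beta-catenin directly, differed by -0.53 (adjusted p = 0.0777). None of the 8 passed without shCtrl replicate 1, and 1 did without replicate 2 of shCtrl or without replicate 1 or 2 of shTCF7L1. With a background offset of 50, 3 were higher and 1 was lower.

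Of the nuclear partners, 2 of 22 tested rose and 0 fell, a share of 9.09% that is near the 7.85% of all genes that rose, with a median of 0.32. TCF7L2, the main TCF factor of intestinal epithelium, rose by 1.59 (SE 0.21, limma adjusted p = 0.000214). CTNNBIP1, or ICAT, which blocks the binding of beta-catenin to TCF factors, rose by 0.77 (SE 0.20, adjusted p = 0.0168). TCF7L2 passed in every alternative, and CTNNBIP1 not without shCtrl replicate 2 or 3 or shTCF7L1 replicate 1 or 2.

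The list of genes known as Wnt targets had the largest median of these lists, 0.42, and 6 of its 19 tested genes rose while 0 fell, a share of 31.6% beside 7.85% of all genes that rose. DKK4, a secreted Wnt antagonist, rose by 2.09 (SE 0.23, limma adjusted p = 3.65e-05) and JUN, an AP-1 subunit, by 2.06 (SE 0.21, adjusted p = 1.47e-05). BAMBI, a pseudoreceptor of the TGF-beta family, rose by 1.20 (adjusted p = 0.0150) and FOSL1, another AP-1 subunit, by 1.08 (adjusted p = 0.00292). BAMBI passed in 12 of 17 alternatives, whereas DKK4, JUN and FOSL1 passed in all 17. MYC rose by 0.72 (adjusted p = 0.0237), but its other probe differed by 0.29 without passing (adjusted p = 0.388). The MYC call passed in 12 of 17 alternatives. It was lost with the mean of probes, the authors' processed values, and without shCtrl replicate 1 or 3 or shTCF7L1 replicate 1. CCND1, cyclin D1, rose by 0.71 (adjusted p = 0.0466) and passed in 7 of 17 alternatives. The count was 3 without shCtrl replicate 1 or shTCF7L1 replicate 1. Like the other lists, this one was chosen with earlier results of these data known, so its share is a description only. Several of these genes, JUN and FOSL1 among them, also answer to other pathways, and these arrays do not separate those inputs.

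**Figure D5:**
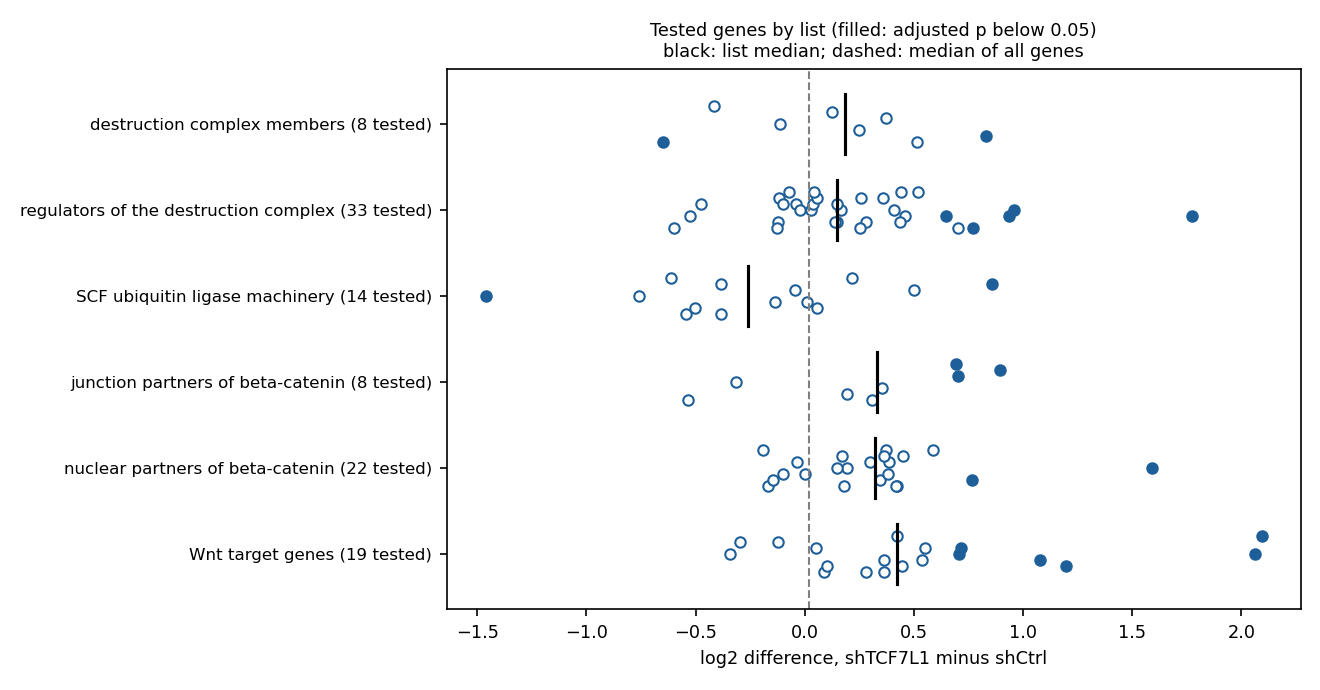
Log2 difference, shTCF7L1 minus shCtrl, of every tested gene of the members and of 5 related lists; filled points had an adjusted p below 0.05, black bars are list medians and the dashed line is the median of all genes (0.02). The members' changed genes lie on both sides of 0, and the changed regulators, junction partners, nuclear partners and Wnt targets all lie above it.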

How the data were processed

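Total RNA was extracted with Trizol and column clean-up, treated with DNase I and amplified to biotinylated cRNA, per the labels' protocols. The deposited table gives, per the file headers, a mean bead signal (intensity, not normalized) and a detection p-value for each probe and array; it came from GenomeStudio 2011.1, per the submitters' processing notes. A deposited table of processed intensities, whose scaling is not given in the sources used here, served as an alternative. Its values below 1 were set to 1 and log2 was taken. Of 47225 probes, 30110 had 1 gene symbol in the platform annotation, 8 had several and 17107 were not listed; 30071 symbols were updated by Entrez identifier through RefSeq. The depth of an array has no counterpart here; the 3 arrays a group limit the precision.

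Signals were corrected by limma's neqc (normexp against controls inferred from the detection p, offset 16, quantile normalization, log2) in R 4.3.3 with limma 3.58.1. The 16835 probes with a detection p below 0.01 on at least 3 arrays were kept, and for each of 10470 genes the kept probe with the highest mean level stood for the gene. Groups were compared by lmFit and eBayes, 2-sided, with Benjamini-Hochberg adjustment over all genes, or over all kept probes for probes; probes that did not pass were fitted over the whole table. Changed means an adjusted p below 0.05. The fit was tested on simulated data. Background correction, scaling, filters, probe choice, variance model, array weights, a replicate block and each array left out were tried as alternatives.

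The members, lists and tests were chosen with earlier results of these data known. Named were all members, TCF7L1, up to 4 changed genes of largest difference a list, and the 3 genes most correlated with CTNNB1 and with each changed member, provisional LOC symbols left out; CCDC88C, MYC, CCND1, CDH1, AXIN2, KRT8 and COL1A1 were added after their values were seen. In 2 member probes, ILMN_1662668 and ILMN_1775058, some signals are written to 3 digits only.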

Additional observations from a re-analysis of the deposited data

How the results depend on the processing

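The number of changed members, 2, was 1 with median scaling, with the authors' processed values and with a replicate block, where GSK3B did not pass (adjusted p = 0.0605); it was 0 without the detection filter, and 0 to 1 when an array was left out. limma gave 3 of 8 at an unadjusted p below 0.05. The number of changed member probes, 2, was 3 with the looser detection filter and 1 with median scaling, array weights or the replicate block. It was 0 with the authors' values or no filter, and 0 to 2 with an array left out. The 2 without shCtrl replicate 3 were those of BTRC and FBXW11 (ILMN_2394576), since GSK3B did not pass with any array left out. With the authors' values 3 regulators, 1 junction partner, 3 Wnt targets and 1039 of all genes changed, against 5, 3, 6 and 1566; 68.3% of those calls were higher in shTCF7L1, against 52.5%, and the median of all genes was 0.13, against 0.02. With a background offset of 50, or the mean of probes, 4 SCF genes changed, against 2. With an array left out the counts were 3 to 5 for regulators, 2 to 3 for SCF genes, 0 to 2 for junction partners, 1 to 2 for nuclear partners, 3 to 6 for Wnt targets and 1007 to 1156 for all genes. The mean of probes turned the sign of CTNNB1 (-0.0011), CSNK1A1 (-0.056) and CSNK1D (0.012), none of which had passed; each averages probes that point in opposite directions. CSNK1D also turned without shCtrl replicate 1, in a range of -0.24 to 0.066 with an array left out. The sign of AXIN1, GSK3B, CSNK1E, BTRC and FBXW11 was kept under all 17 alternatives. For the other changes the cause was not tested. Same-numbered arrays did not deviate together (r of -0.011, -0.0066 and -0.0058), so the numbers gave no sign of a pairing. With 3 arrays a group this cannot show whether the samples were prepared in pairs. Signals near background set the limit: 11 of 26 probes did not pass the filter, 9 of them above background on no array.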
